A study of Mus musculus with 16 samples.

Results

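The 40 genes described here are interferon-stimulated genes, a panel named by symbol that runs from Ifit1 to Lgals3bp. All 40 were listed among the 17951 genes of the deposited table, so none was dropped. RNA was sequenced from microglia, the resident macrophages of the brain, sorted from 5xFAD mice, a transgenic line that carries mutant human amyloid precursor and presenilin genes and builds up amyloid plaques. The mice had been injected with methoxy-X04 (Me-X04), a dye that binds amyloid, and Cd11b and Cd45 positive cells of transgenic (TG) mice were divided into dye-positive cells, which had taken up amyloid, and dye-negative cells. The groups were WT (7 dye-negative libraries of 7 mice), TG Me-X04- with 5 libraries and TG Me-X04+ with 4, and TG libraries of the same number came from the same mouse.

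By their labels the WT animals were 2 months old and the TG animals 6 months, a wider gap than in the study's methods, so age and genotype cannot be told apart in the comparisons with WT. All groups shared the dye injection and the sort. Each library held the sorted cells of 1 mouse, and in such bulk RNA a change in the number of cells of a type and a change in RNA per cell cannot be told apart.

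Interferons are secreted alarm proteins that bind receptors on the same and on neighbouring cells. Type I interferons act through the kinases Jak1 and Tyk2 to switch on transcription factors, which bind the interferon-stimulated response element in the promoters of their targets. The targets sense viral RNA and DNA, block viral replication and feed back on the pathway, and in the brain microglia are among the main cells to express them.

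The panel is made of interferon-stimulated genes, the targets of factors that bind the interferon-stimulated response element. A larger share of matches among its members is therefore not separate from how they were chosen. RefSeq windows on GRCm38.p6, from 250 bases before to 50 after each start, were given for 30 of the 40 members. The core of the response element, GAAA followed by any 2 bases and another GAAA, read on both strands with overlaps allowed, was found in 17 of these 30 (56.7%), against 3.99% of the 27025 genes with a window. It was found in 13 of the 19 members with a window that were called higher in TG Me-X04+ than in WT and in 4 of the 11 that were not called, as described below. TTCNNNGAA, the core of the gamma-activated site, which reads the same on both strands, was found in 6 of 30 members (20%) and in 9.55% of all genes.

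The stretches that hold the matches are shown for 5 members that were called in that comparison and 2 that were not, with the matched bases in capitals and each read 5′ to 3′ on the strand of its gene. Oas1a (chr5:120907526-120907570, minus strand), Isg15 (chr4:156200850-156200921, minus), Oas3 (chr5:120777700-120777759, minus), Ifi207 (chr1:173741816-173741875, minus) and Ifit1 (chr19:34640760-34640838, plus) were called, and Bst2 (chr8:71537562-71537627, minus) and Ddx60 (chr8:61928009-61928086, plus) were not.
Oas1a: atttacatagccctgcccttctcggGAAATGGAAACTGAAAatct
Isg15: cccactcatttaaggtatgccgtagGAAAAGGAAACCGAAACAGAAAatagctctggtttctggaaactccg
Oas3: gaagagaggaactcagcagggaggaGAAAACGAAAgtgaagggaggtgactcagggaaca
Ifi207: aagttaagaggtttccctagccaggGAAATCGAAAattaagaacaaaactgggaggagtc
Ifit1: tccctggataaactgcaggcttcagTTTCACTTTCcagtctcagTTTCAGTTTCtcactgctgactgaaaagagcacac
Bst2: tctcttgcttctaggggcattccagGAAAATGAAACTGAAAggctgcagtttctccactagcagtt
Ddx60: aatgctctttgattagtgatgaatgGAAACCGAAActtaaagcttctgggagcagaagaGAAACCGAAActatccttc
In Isg15 3 matches overlapped and began 78 bases before the start, in Oas1a 2 overlapped and began 20 bases before it, and in Ifit1 both matches lay on the opposite strand. Bst2 and Ddx60 each held 2 matches, so a match was not limited to the members that were called. A match is a run of letters and was not tested as a binding site. Gene positions below are on GRCm38 (GENCODE annotation), where several members lie side by side, such as Ifit1, Ifit2 and Ifit3 on chromosome 19, Ifi204 and Ifi207 on chromosome 1, and Oas1a, Oas2 and Oas3 on chromosome 5.

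Against WT, most interferon-stimulated genes had fold changes above 0 in both sorts of TG microglia. In dye-negative microglia a few of them were called higher, and in dye-positive microglia most were. A gene was called when the adjusted p of limma was under 0.05 and the log2 fold change was at least 0.7 in size. In TG Me-X04- against WT 5 of the 40 members were called higher and none lower, where 0.201% of all genes were called, 0.189% higher and 0.0111% lower. In TG Me-X04+ against WT 25 of 40 were called higher and none lower, where 14.3% of all genes were called, 8.25% higher and 6.02% lower. Both comparisons use the same WT libraries. The median log2 fold change over the members was 1.17 in TG Me-X04- against WT and 1.98 in TG Me-X04+ against WT, where the medians of all genes were 0.01 and -0.11. In TG Me-X04- against WT the fold change was above 0 for all 40 members (39 with median centring of the libraries), where 51.6% of all genes were above 0, and 24 had an unadjusted p under 0.05, where 5.18% of all genes had one.

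Between the 2 sorts of TG microglia the difference was smaller. In TG Me-X04+ against TG Me-X04- 2 of 40 members, Lgals3bp and Oas1a, were called higher and none lower, where 5.49% of all genes were called and 3.44% called higher, so the share of members called was close to that of all genes. The members' median log2 fold change was 0.54, beside -0.09 for all genes, and 10 members had an unadjusted p under 0.05, where 18.7% of all genes had one. The fold change was above 0 for 36 members, where 44.4% of all genes were above 0 without another scaling. It was above 0 for 25 members when each library was scaled by reads that lie outside mitochondrial genes. That scaling moved the fold change of every gene by the same amount, -0.39. The members' median was then 0.15, beside -0.49 for all genes. Under that scaling the genes called higher and lower were 249 and 948 in place of 617 and 369, and in TG Me-X04+ against WT 1009 and 2070 in place of 1481 and 1081, where 35 members had a fold change above 0 in place of 38, beside 44.1% of all genes without that scaling.

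**Figure D1:**
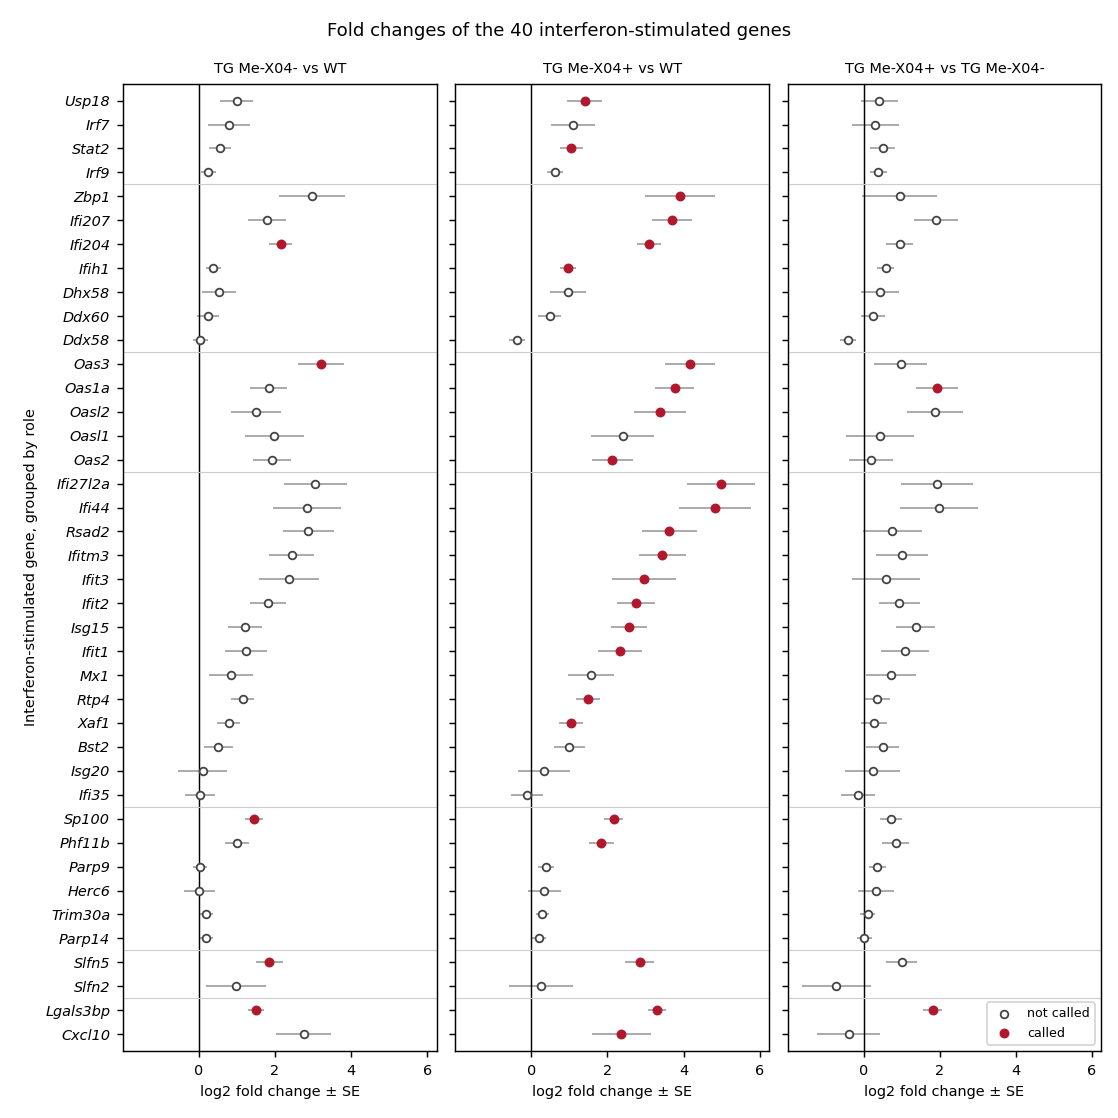
Log2 fold change (horizontal axis, bars are the standard error) of each of the 40 genes, grouped by role, in 3 comparisons, with filled points for genes called by limma. Called genes number 5 in TG Me-X04- against WT, 25 in TG Me-X04+ against WT and 2 in TG Me-X04+ against TG Me-X04-.

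The transcription factors Irf7, Irf9 and Stat2 carry the signal to the nucleus and Usp18, a protease that removes Isg15 from proteins and damps the receptor, feeds back on it. Of these 4, Usp18 and Stat2 were called higher in TG Me-X04+ than in WT, where 8.25% of all genes were. They rose by 1.41 ± 0.46 (SE) and 1.05 ± 0.31 on the log2 scale, and none of the 4 was called in the other comparisons. Both calls were near the threshold, with adjusted p-values of 0.0462 and 0.0275. Usp18 was called in 4 of the 11 fits that left out a library of these groups, and was lost without WT 1, 2, 3 or 6 or TG Me-X04+ 1, 3 or 4, with adjusted p-values up to 0.143. Stat2 was called in 7 of 11 and lost without WT 2 or 4 or TG Me-X04+ 1 or 2, with adjusted p-values up to 0.103. Irf9 differed by 0.63 ± 0.21 with an adjusted p of 0.0499, under the fold required, though its TG Me-X04+ libraries (3.15 to 3.71 log2 RPKM) lay above its WT libraries (2.60 to 2.96). Irf7, the factor that amplifies the type I response, differed by 1.10 ± 0.58 (adjusted p = 0.231), and its groups overlapped.

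Among sensors of RNA and DNA, the sensors of the Ifi200 family and Zbp1 differed most between the groups. Zbp1, a sensor of left-handed nucleic acid that can start cell death, lay between -5.20 and 0.04 log2 RPKM in WT with a median of -1.01. In TG Me-X04- its libraries 1 to 5 stood at 1.32, 0.19, 1.07, 2.04 and 0.64, and in TG Me-X04+ libraries 1 to 4 at 1.99, 0.22, 3.44 and 2.34. Every TG library lay above every WT library, while the TG sorts overlapped. Zbp1 rose by 3.91 ± 0.92 in TG Me-X04+ against WT (adjusted p = 0.00751), and its difference in TG Me-X04- against WT was 2.97 ± 0.86 (adjusted p = 0.373). In 2 of the 7 WT libraries it had 3 reads or fewer, so the size of its fold change depends on the small prior the authors added to each count.

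Ifi204 (chr1:173747293-173766943, minus strand), a DNA sensor of the Ifi200 family, lay between 1.01 and 1.82 in WT with a median of 1.52 log2 RPKM. It stood at 4.53, 3.58, 3.48, 3.82 and 2.40 in TG Me-X04- and at 5.14, 4.80, 4.02 and 4.05 in TG Me-X04+. The WT libraries lay below all others by a wide margin, and only TG Me-X04- 1 reached into the range of the dye-positive libraries. Ifi204 rose by 2.15 ± 0.31 in TG Me-X04- against WT (adjusted p = 0.00296) and by 3.09 ± 0.33 in TG Me-X04+ against WT (adjusted p = 8.58e-06), and between the TG sorts it differed by 0.94 ± 0.35 (adjusted p = 0.139). Its call in TG Me-X04- against WT was kept in all 12 fits that left out a library of those groups.

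Ifi207, a nuclear protein of the same family, lay between -0.36 and 2.34 in WT with a median of 0.76 log2 RPKM. It stood at 4.23, 2.89, 2.35, 2.31 and 1.17 in TG Me-X04- and at 5.11, 5.32, 3.74 and 3.82 in TG Me-X04+. The dye-positive libraries all lay above WT, whereas TG Me-X04- spanned the range from WT to dye-positive levels. Ifi207 rose by 3.69 ± 0.54 in TG Me-X04+ against WT (adjusted p = 0.000147). Between the TG sorts it differed by 1.91 ± 0.57 (adjusted p = 0.0619) and was higher in the dye-positive library of all 4 mice. With the TG mice as blocks this difference was 1.55 and was not called (adjusted p = 0.0826). With the replicate number as a block over all groups, which also joins WT mice to unrelated TG mice, it was 1.63 and was called (adjusted p = 0.0212). Ifi204 shares 20% of its 50-base words with other genes, most with Ifi211, so reads could be split between family members.

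Ifih1, the sensor of long double-stranded RNA, rose by 0.96 ± 0.22 in TG Me-X04+ against WT (adjusted p = 0.00509). Its WT libraries ran from 1.81 to 2.41 log2 RPKM and its TG Me-X04+ libraries from 2.86 to 3.44. The other RNA helicases were not called in any comparison. Dhx58 differed by 0.96 and Ddx60 by 0.48 in TG Me-X04+ against WT. Ddx58, which encodes the sensor RIG-I, lay between 2.25 and 2.81 log2 RPKM in WT with a median of 2.59, at 2.42, 2.88, 2.76, 2.62 and 2.35 in TG Me-X04-, and at 2.41, 2.53, 1.95 and 1.88 in TG Me-X04+. The dye-positive libraries 3 and 4 lay below all other libraries, and the groups overlapped. Ddx58 differed by -0.38 in that comparison and by -0.41 ± 0.22 between the TG sorts (adjusted p = 0.336). It was lower in the dye-positive library of all 4 mice, and was called lower, at an adjusted p under 0.05, only under the scaling by reads that lie outside mitochondrial genes.

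The oligoadenylate synthetases make a second messenger that switches on the RNA-cutting enzyme RNase L. The 5 members counted here include the Oas-like genes Oasl1 and Oasl2. Of these 5, 4 were called higher in TG Me-X04+ against WT, where 8.25% of all genes were. Oas3 alone was called in TG Me-X04- against WT, and Oas1a alone between the TG sorts. In TG Me-X04- against WT all 5 had a fold change above 0 and an unadjusted p of limma under 0.05, with a median of 1.92. Oas3 (chr5:120753098-120777661, minus strand) was the member with the lowest WT mean (-4.72), between -6.21 and -3.08 log2 RPKM with a median of -4.42, which is 0 to 17 reads a library. It stood at -1.21, -1.33, -2.06, -0.56 and -2.47 in TG Me-X04- and at -0.66, -0.99, -0.91 and 0.33 in TG Me-X04+. Every TG library lay above every WT library. Oas3 rose by 3.20 ± 0.61 in TG Me-X04- against WT (adjusted p = 0.0365) and by 4.17 ± 0.65 in TG Me-X04+ against WT (adjusted p = 0.000279). The first call held in 4 of the 12 fits that left out a library, and was lost without WT 1, 2, 3 or 5 or TG Me-X04- 1, 2, 3 or 4, with fold changes of 2.95 to 3.47 and adjusted p-values up to 0.167.

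Oas1a (chr5:120896256-120907521, minus strand) lay between -1.92 and 1.07 log2 RPKM in WT with a median of 0.20. It stood at 1.66, 1.02, 1.89, 2.89 and 1.72 in TG Me-X04- and at 4.47, 3.30, 3.58 and 3.73 in TG Me-X04+. The dye-positive libraries lay above all others, and TG Me-X04- 2 alone of the dye-negative libraries fell within the WT range. Oas1a rose by 1.93 ± 0.55 between the TG sorts (adjusted p = 0.0466), a 3.82-fold difference, and by 3.76 ± 0.51 in TG Me-X04+ against WT (adjusted p = 7.96e-05). Within the 4 mice the dye-positive library was higher by 2.81, 2.28, 1.69 and 0.84. The call between the TG sorts was kept in only 1 of 9 fits that left out a library, that without TG Me-X04- 4, and was lost without any other of these libraries (fold changes of 1.70 to 2.20, adjusted p-values up to 0.124). With the TG mice as blocks it was also lost (1.90, adjusted p = 0.0961), as it was with the replicate number as a block over all groups (adjusted p = 0.0725), without a variance trend, with library weights, after quantile normalization and under the scaling by reads that lie outside mitochondrial genes (adjusted p-values up to 0.124). Since all libraries share 1 estimate of the spread, it was lost without WT 2, 4 or 6 too (adjusted p-values up to 0.0603). Oas1a shares 57.6% of its 50-base words with its neighbour Oas1g, so its level is uncertain.

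Oasl2, an Oas-like gene whose product inhibits viral RNA replication, rose by 3.38 ± 0.69 in TG Me-X04+ against WT, and Oas2 by 2.13 ± 0.54. Oasl1, which restrains translation of Irf7, had at most 8 reads in a WT library and was not called (2.40 ± 0.83, adjusted p = 0.0616).

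**Figure D2:**
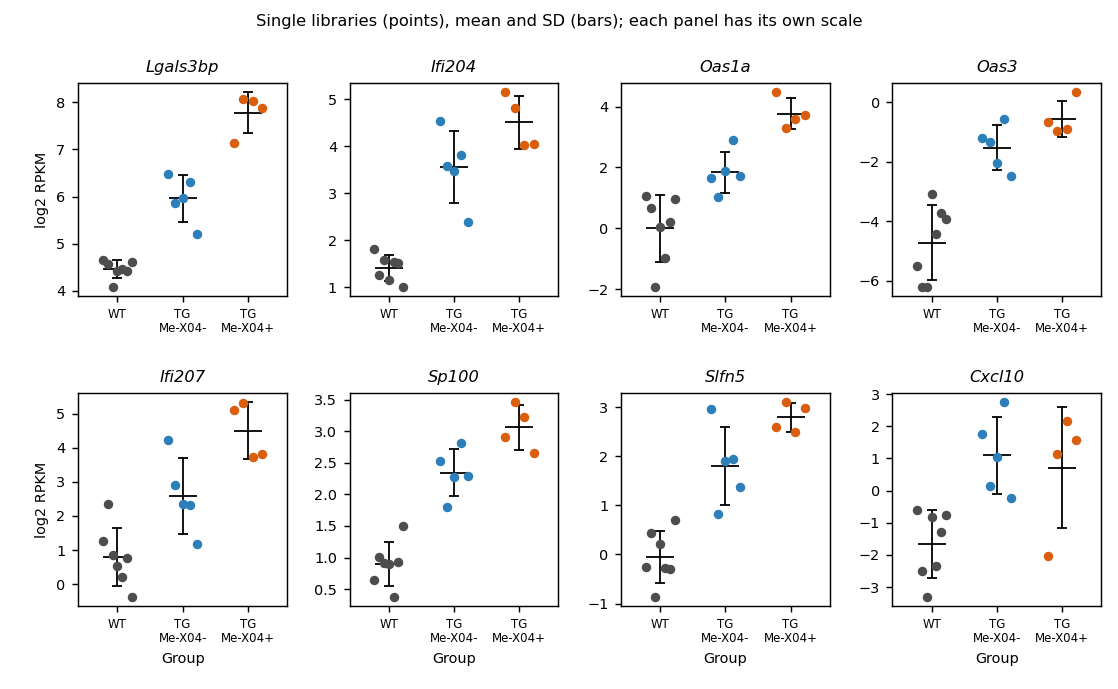
Log2 RPKM of 8 of the genes (vertical axis, a scale for each panel) in each of the 16 libraries, by group (7 WT, 5 dye-negative TG and 4 dye-positive TG), with the group mean and SD. The dye-positive libraries of Lgals3bp and Oas1a lie above all other libraries, whereas those of Cxcl10 run from -2.03 to 2.16.

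The 14 antiviral effectors held the 2 largest fold changes of the panel, those of Ifi27l2a and Ifi44 in TG Me-X04+ against WT. In TG Me-X04+ against WT 10 of them were called higher and none lower, where 8.25% and 6.02% of all genes were. None of the 14 was called in the other comparisons. Ifi27l2a, a small mitochondrial and membrane protein, had the larger of these. It lay between -2.27 and 1.96 log2 RPKM in WT with a median of 1.36, at 2.76, 1.11, 5.40, 5.42 and 3.34 in TG Me-X04-, and at 3.93, 5.35, 6.84 and 6.01 in TG Me-X04+. The dye-positive libraries lay above WT, and in TG Me-X04- library 2 alone fell within the WT range. Ifi27l2a rose by 4.98 ± 0.89 in TG Me-X04+ against WT (adjusted p = 0.000893). It had 3 reads or fewer in 2 of the 7 WT libraries, so the size of this fold change depends on the prior. Between the TG sorts it was higher in the dye-positive library of all 4 mice, by 0.59 to 4.24, with a difference of 1.93 ± 0.95 that was not called (adjusted p = 0.292).

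Ifi44, an interferon-induced GTP-binding protein, lay between -6.00 and -2.30 in WT with a median of -3.76 log2 RPKM, at 0.31, -0.91, -2.96, 0.14 and -3.29 in TG Me-X04-, and at 2.01, 1.76, 0.79 and -1.99 in TG Me-X04+. Its TG Me-X04+ library 4 lay just above the highest WT library and below 3 of the 5 dye-negative libraries. Ifi44 rose by 4.83 ± 0.95 in TG Me-X04+ against WT (adjusted p = 0.00200). It had 3 reads or fewer in 3 of the 7 WT libraries, so the size of this fold change depends on the prior. Between the TG sorts it had the largest difference of the 40, 1.98 ± 1.02, which was not called (adjusted p = 0.317). In mouse 4 the dye-positive library was lower by 2.13, while in the other mice it was higher by 1.70 to 3.75.

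Rsad2 encodes viperin, which makes a chain-terminating nucleotide. It lay between -4.79 and -1.41 log2 RPKM in WT with a median of -2.05, at 0.60, 0.67, 0.04, 0.16 and -1.76 in TG Me-X04-, and at 0.34, 1.06, 1.31 and 0.09 in TG Me-X04+. Only TG Me-X04- 5 overlapped with WT. Rsad2 rose by 3.62 ± 0.72 in TG Me-X04+ against WT (adjusted p = 0.00209), and differed by 0.76 ± 0.77 between the TG sorts. It had 3 reads or fewer in 3 of the 7 WT libraries, so the size of its fold change against WT depends on the prior.

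Ifitm3, a membrane protein that blocks entry of viruses from endosomes, lay between 0.28 and 3.72 in WT with a median of 3.20 log2 RPKM. It stood at 4.77, 4.41, 5.37, 6.00 and 4.51 in TG Me-X04- and at 4.35, 5.45, 7.16 and 7.11 in TG Me-X04+. Every TG library lay above every WT library, and the TG sorts overlapped. Ifitm3 rose by 3.45 ± 0.63 in TG Me-X04+ against WT (adjusted p = 0.00106), and its difference in TG Me-X04- against WT, 2.44 ± 0.59, was not called (adjusted p = 0.163).

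Of the other called effectors, the RNA-binding Ifit3, Ifit2 and Ifit1 rose by 2.96, 2.75 and 2.33 in TG Me-X04+ against WT. Isg15, the ubiquitin-like protein that is attached to newly made proteins, rose by 2.57, the chaperone Rtp4 by 1.50 and Xaf1, a promoter of cell death, by 1.05. The call of Ifit3 was lost without TG Me-X04+ 1 or 3 (adjusted p up to 0.0633). That of Xaf1 was kept in 3 of 11 fits, and was lost without WT 3, 4, 5, 6 or 7 or TG Me-X04+ 1, 3 or 4 (adjusted p up to 0.109). Ifit3 shares 51.2% of its 50-base words with Ifit3b. Mx1, the antiviral GTPase (1.56 ± 0.61), Bst2, which tethers budding virus (1.00 ± 0.41), the exonuclease Isg20 (0.34 ± 0.68) and Ifi35 (-0.11 ± 0.42) were not called.

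**Figure D3:**
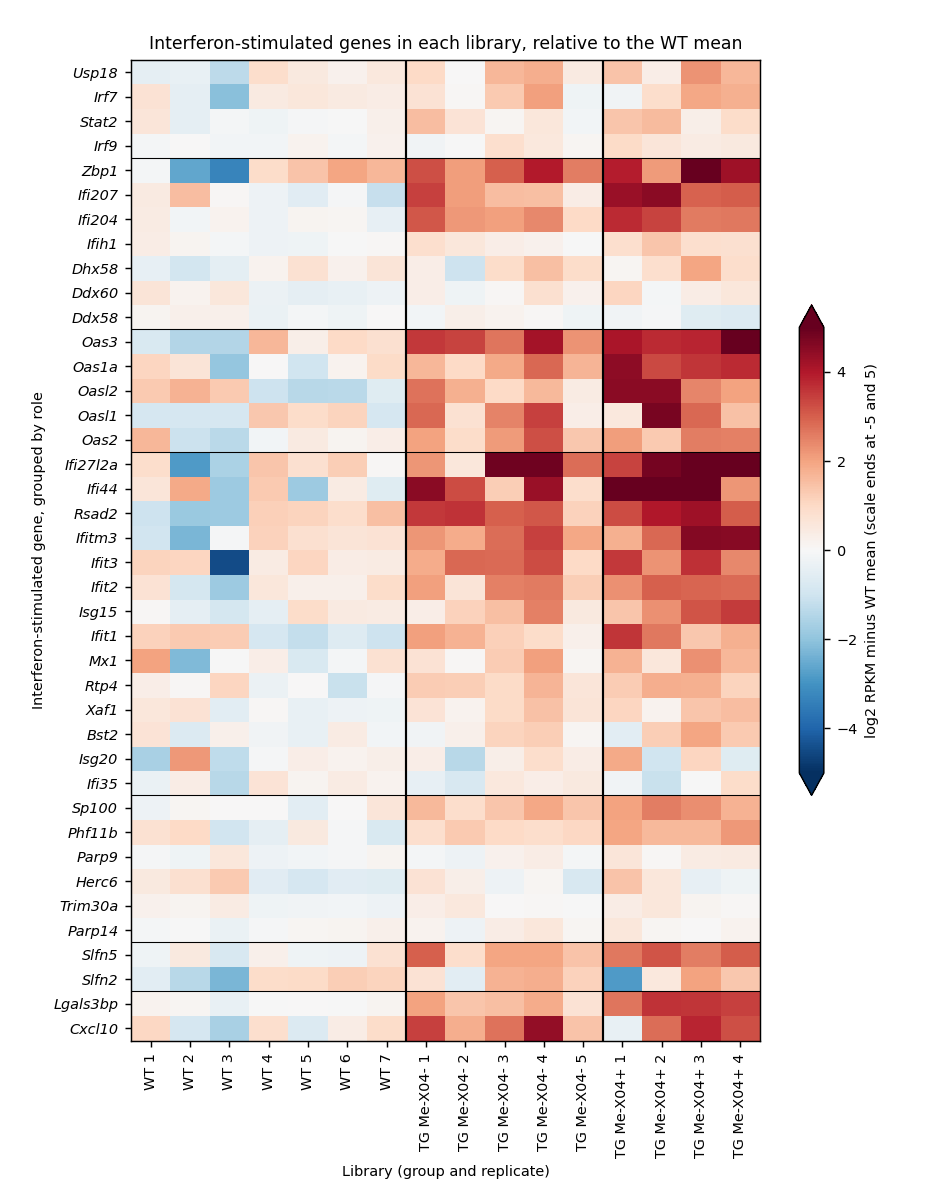
Log2 RPKM of each of the 40 genes (rows, grouped by role) in each of the 16 libraries (columns) minus the gene's WT mean, with colours capped at -5 and 5. Ifi27l2a, Ifi44, Oas3 and Zbp1 are far above the WT mean in most TG libraries, whereas Parp9, Parp14 and Trim30a hardly depart from it.

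The members that act in the nucleus or on other proteins fell into 2 that changed and 4 that did not pass the test. Sp100 (chr1:85649988-85709998, plus strand), a component of nuclear bodies, lay between 0.38 and 1.49 log2 RPKM in WT with a median of 0.92. It stood at 2.52, 1.80, 2.28, 2.82 and 2.29 in TG Me-X04- and at 2.91, 3.46, 3.22 and 2.65 in TG Me-X04+. Every TG library lay above every WT library. Sp100 rose by 1.44 ± 0.24 in TG Me-X04- against WT (adjusted p = 0.0130) and by 2.16 ± 0.26 in TG Me-X04+ against WT (adjusted p = 2.54e-05). The first call was lost without TG Me-X04- 1 or 4 (adjusted p up to 0.0689).

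Phf11b rose by 1.84 ± 0.33 in TG Me-X04+ against WT (adjusted p = 0.000858). Its dye-positive libraries (4.26 to 4.83 log2 RPKM) also lay above its dye-negative ones (3.48 to 3.97), a difference of 0.84 ± 0.35 that was not called (adjusted p = 0.196). Phf11b shares 47.0% of its 50-base words with its relatives, most with Phf11a. The ADP-ribosyltransferases Parp9 and Parp14, the ligase of Isg15 Herc6 and the ubiquitin ligase Trim30a had log2 fold changes of 0.21 to 0.38 in TG Me-X04+ against WT, none of them called. Trim30a was the highest of the 40 in WT, at 4.62 ± 0.26 (SD, n = 7) log2 RPKM, beside 4.81 ± 0.23 (n = 5) in TG Me-X04- and 4.91 ± 0.23 (n = 4) in TG Me-X04+.

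The Schlafen genes restrain growth of immune cells and replication of viruses. Slfn5 (chr11:82951349-82964840, plus strand) lay between -0.86 and 0.71 log2 RPKM in WT with a median of -0.25, at 2.96, 0.81, 1.91, 1.94 and 1.37 in TG Me-X04-, and at 2.61, 3.10, 2.49 and 2.98 in TG Me-X04+. Every TG library lay above every WT library. Slfn5 rose by 1.85 ± 0.35 in TG Me-X04- against WT (adjusted p = 0.0365) and by 2.84 ± 0.38 in TG Me-X04+ against WT (adjusted p = 6.59e-05). The first call held in 3 of 12 fits that left out a library and was lost without WT 1, 3, 4, 5 or 6 or TG Me-X04- 1, 3, 4 or 5 (adjusted p up to 0.147).

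Slfn2 had the lowest fold change of the 40 between the TG sorts, -0.72 ± 0.90 (adjusted p = 0.733), and was not called in any comparison. It lay between -1.25 and 2.25 log2 RPKM in WT with a median of 1.94, at 1.75, 0.50, 2.75, 2.83 and 2.16 in TG Me-X04-, and at -1.81, 1.54, 3.03 and 2.37 in TG Me-X04+. The lowest library of all was TG Me-X04+ 1, while TG Me-X04+ 3 was the highest of all and the other 2 dye-positive libraries lay inside the range of the dye-negative ones. Without TG Me-X04+ 1 the difference was 0.31, the upper end of its range over such fits.

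Both secreted proteins rose in TG Me-X04+ against WT, and Lgals3bp alone was called in the other comparisons. Lgals3bp (chr11:118392751-118402092, minus strand), a glycoprotein that binds galectins, lay between 4.09 and 4.65 log2 RPKM in WT with a median of 4.47. It stood at 6.47, 5.87, 5.96, 6.32 and 5.20 in TG Me-X04- and at 7.13, 8.07, 8.02 and 7.87 in TG Me-X04+. The groups stood in steps with no overlap between any of the 3. Lgals3bp rose by 1.50 ± 0.22 in TG Me-X04- against WT (adjusted p = 0.00373), by 3.31 ± 0.23 in TG Me-X04+ against WT (adjusted p = 9.24e-08) and by 1.81 ± 0.25 between the TG sorts (adjusted p = 0.000625), the last a 3.51-fold difference. The dye-positive library was higher by 0.66, 2.20, 2.06 and 1.55 in the 4 mice, and the call between the sorts held in all 9 fits that left out a library of these groups, under all 13 alternatives and with the TG mice as blocks (adjusted p = 0.00193).

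Cxcl10, the chemokine that draws activated T cells, lay between -3.29 and -0.60 log2 RPKM in WT with a median of -1.28, at 1.77, 0.16, 1.04, 2.74 and -0.22 in TG Me-X04-, and at -2.03, 1.12, 2.16 and 1.58 in TG Me-X04+. All dye-negative TG libraries lay above WT, but TG Me-X04+ 1, with 6 reads, lay within the WT range. Cxcl10 rose by 2.36 ± 0.77 in TG Me-X04+ against WT (adjusted p = 0.0488), and differed by 2.75 ± 0.72 in TG Me-X04- against WT (adjusted p = 0.235) and by -0.39 ± 0.83 between the TG sorts (adjusted p = 0.853). The call held in 2 of 11 fits, those without WT 1 or TG Me-X04+ 1, and was lost without any other library of these groups (adjusted p up to 0.152). Between the sorts the sign of Cxcl10 turned without TG Me-X04+ 1, where the difference was 0.52, and without TG Me-X04- 4, where it was 0.02.

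Apart from fits without a library or with the block, 6 of the 25 calls in TG Me-X04+ against WT were lost under at least 1 alternative. With the scaling by reads that lie outside mitochondrial genes, Cxcl10 (adjusted p = 0.0895), Stat2 (0.0546), Usp18 (0.154) and Xaf1 (0.165) missed the adjusted p of limma, and Ifih1 (0.66) the fold required. With only the libraries of these groups fitted, Cxcl10, Usp18, Xaf1 and Ifit3 missed it, the last at 0.0516. In TG Me-X04- against WT, Oas3 and Slfn5 were not called with log2(RPKM + 1), with voom on the recovered reads or with only those groups fitted, and Oas3 differed by 0.39 on the log2(RPKM + 1) scale.

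Groups of libraries that did not overlap gave a similar picture. In TG Me-X04- against WT every TG library exceeded every WT library for 8 members, where 1.06% of all genes did not overlap (0.652% higher). In TG Me-X04+ against WT it did for 21 members, where 10.5% of all genes did not overlap (6.56% higher). Between the TG sorts every dye-positive library exceeded every dye-negative one for 3 members, Lgals3bp, Oas1a and Phf11b. There 7.93% of all genes did not overlap (4.8% higher), so the share of members was near that of all genes.

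The libraries of a group were unequal in their levels of the panel. The median over the 40 members of the difference from the WT mean lay between -0.52 and 0.35 log2 units in the WT libraries. It was 1.40, 0.74, 1.30, 1.81 and 0.54 in TG Me-X04- libraries 1 to 5 and 1.59, 1.71, 2.25 and 1.76 in TG Me-X04+ libraries 1 to 4. Each TG library was above each WT library, while TG Me-X04- 4 exceeded 3 of the 4 dye-positive libraries. That library was the highest of its group for 24 members, whereas TG Me-X04- 2 and 5 were each the lowest for 18.

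Within a mouse, the dye-positive library was the higher for 28 of 40 members in mouse 1, 37 in mouse 2, 35 in mouse 3 and 21 in mouse 4, with median differences of 0.43, 0.81, 0.63 and 0.04. Mouse 4, whose dye-negative library held the highest panel of its group, showed almost no difference over the panel, and the reason was not tested. For 15 members the dye-positive library was the higher in all 4 mice, among them Oas1a, Ifi207, Isg15, Ifi27l2a and Lgals3bp. The share of all genes that were higher in the dye-positive library was not computed for single mice, so these counts have no baseline.

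**Figure D4:**
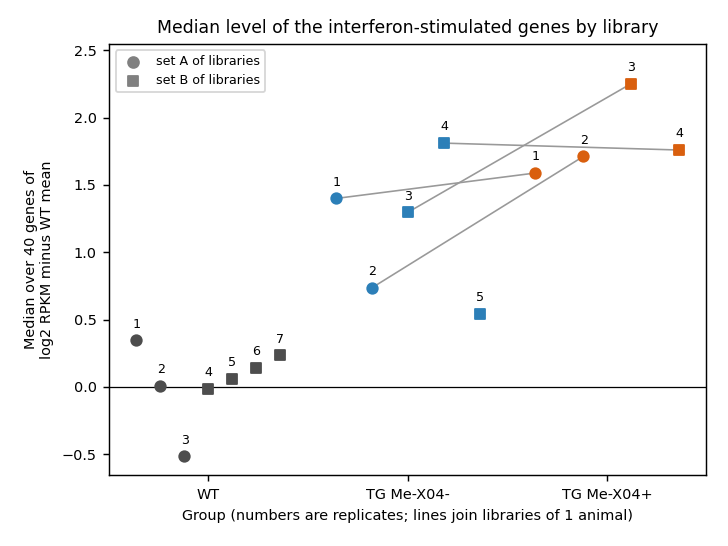
Median over the 40 genes of log2 RPKM minus the gene's WT mean (vertical axis) in each library, by group, with lines joining the 2 libraries of 1 mouse and the marker showing the set of libraries. The TG libraries lie between 0.54 and 2.25, above the WT libraries, and the line of mouse 4 is nearly flat.

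Once group means were removed, the leading principal component (35.9% of the variance) split the 16 libraries into 2 sets. Set A held WT 1 to 3, TG Me-X04- 1 and 2 and TG Me-X04+ 1 and 2, and set B the rest. The study used 2 sequencers and does not assign libraries to them, so whether the sets follow the sequencer was not tested. In all 3 groups 11 members were higher in set A, among them Oasl2 (by 2.54 in WT, 1.22 in the dye-negative and 2.29 in the dye-positive libraries), Ifit1, Ifi44, Ifi207 and Herc6, and 14 were lower, among them Ifi27l2a (by -2.05, -2.79 and -1.78), Slfn2, Ifitm3, Zbp1 and Cxcl10. The members' median difference between the groups was similar within the sets. Sets A and B gave 1.13 and 1.22 in TG Me-X04- against WT, 1.63 and 1.96 in TG Me-X04+ against WT, and 0.50 and 0.67 between the TG sorts. With a term for the sets, 11, 27 and 7 members were called in these comparisons in place of 5, 25 and 2. The share of all genes called rose with that term as well, to 0.563%, 21.8% and 11.9%. Some single members differed more between the sets than these medians did. In TG Me-X04- against WT, sets A and B gave 5.13 and 1.23 for Rsad2, 4.70 and 2.09 for Oas3, and 0.66 and 1.72 for Ifit1. Between the TG sorts Cxcl10 differed by -1.42 in set A and by 0.68 in set B.

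The rest of the interferon pathway was taken from lists by role, and none of the 9 interferon ligands looked for, from Ifnb1 to Ifng, was listed in the table. Of 11 receptor and JAK-STAT genes, Ifngr1, the ligand-binding chain of the interferon-gamma receptor, fell by 0.86 on the log2 scale between the TG sorts and by 0.95 in TG Me-X04+ against WT. In the latter Ifnlr1, the receptor of interferon lambda, was called higher from 0 to 1 reads in the WT libraries and 0 to 28 in the dye-positive ones, too few for a fold change. None of the 5 further regulatory factors, Irf1, Irf2, Irf3, Irf5 and Irf8, was called in any comparison. Of 13 sensors and adaptors, Tmem173, which encodes STING, was called, falling by 0.92 in TG Me-X04+ against WT. Of 11 listed genes that restrain the pathway, Socs3, a feedback inhibitor of JAK kinases, fell by 2.29 between the TG sorts and by 1.58 in TG Me-X04+ against WT. In TG Me-X04+ against WT the called share was 7.69% of the sensors and adaptors and 9.09% of the restraining genes, under the 14.3% of all genes. Between the TG sorts 5.49% of all genes were called.

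Further interferon-stimulated genes outside the panel followed it in part against WT. Of 55 listed, 14 were called higher and none lower in TG Me-X04+ against WT, where 8.25% of all genes were called higher. The 55 had a median log2 fold change of 0.89, beside -0.11 for all genes. Among the 14 were the sensors Ifi211 (3.83) and Ifi205 (3.54), Oas1g (2.93), B2m (2.22), Nlrc5 (2.01) and Ifi213 (1.79). Between the TG sorts 2 (3.64%) were called, both higher, Psme1, a proteasome activator (1.41), and B2m, the light chain of MHC class I (1.54). That share was close to the 3.44% of all genes called higher. None was called in TG Me-X04- against WT, where limma gave 14 of them an unadjusted p under 0.05, beside 5.18% of all genes. Of 18 listed genes typical of interferon-gamma, 6 were called higher and 2 lower in TG Me-X04+ against WT. For all genes the shares were 8.25% and 6.02%. The chemokine Cxcl9 (4.21), Gbp6 (3.31), Cd274, which encodes PD-L1 (3.00), and Fgl2 (2.74) were among the higher, and the guanylate-binding proteins Gbp7 (-2.29) and Gbp5 (-1.93) were the lower. Gbp7 and Gbp5 also fell between the TG sorts, by 1.82 and 1.59, while Cd274 rose by 1.80, and Fgl2 was the 1 gene of this list called in TG Me-X04- against WT (1.68). Over all genes 5.49% were called between the TG sorts and 0.201% in TG Me-X04- against WT. The lists hold genes that may answer to either type of interferon.

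All 9 markers of microglia, the labelled cell type, were listed, and their summed RPKM lay between 4047 and 8044 in every library. Of these, Tmem119 fell by 1.58 on the log2 scale between the TG sorts and by 1.55 in TG Me-X04+ against WT, and P2ry12 fell by 0.97 in the latter. The summed RPKM of 8 markers of plaque-associated microglia lay between 37.7 and 101 in WT, 185 and 323 in TG Me-X04- and 1600 and 2942 in TG Me-X04+. Between the TG sorts all 8 were called higher, where 3.44% of all genes were. Their median log2 fold change there was 3.11, beside 0.54 for the panel, of which 2 of 40 were called higher. The study named all 8 among genes that differed in these same data, so this result was not separate from how the markers were chosen. None of 6 markers of T and NK cells was listed, and of plasmacytoid dendritic cells, a strong source of type I interferon, Ly6d, Klk1 and Spib were not listed. The sum of the 3 that were (Ccr9, Cox6a2 and Tcf4) ran from 12 to 19.6 in WT, from 10.9 to 16 in TG Me-X04- and from 26.8 to 67.0 in TG Me-X04+, where against WT Cox6a2 was called higher (by 5.81 on the log2 scale) and Ccr9 and Tcf4 lower. The sum of 6 markers of border macrophages lay between 2.48 and 5.97 in WT, 1.74 and 6.88 in TG Me-X04- and 2.76 and 20.8 in TG Me-X04+. Of monocyte markers 3 of 6 were listed (1.03 to 9.24 in all libraries), of which Ccr2 fell by 1.57 in TG Me-X04+ against WT, and of neutrophil markers 2 of 6 (0.321 to 19.6). The summed markers of B cells, endothelial cells, astrocytes, oligodendrocytes and neurons stayed at or under 12.5 in every library. Of the 2 endothelial markers listed, Flt1 rose by 5.87 in TG Me-X04+ against WT and by 3.55 between the TG sorts, whereas Pecam1 fell by 4.83 in the former. The part of these cells in the levels of the panel was not tested. Mitochondrial genes took 11.0% to 24.1% of the reads of a WT library, 18.2% to 35.6% in TG Me-X04- and 27.2% to 44.8% in TG Me-X04+, and their part was not tested either.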

How the data were processed

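Total RNA of sorted microglia was amplified with the Ovation RNA-Seq System V2, and strandedness was not stated. Per the labels and the study's methods, the authors trimmed reads with Trim Galore 0.4.4, aligned them to GRCm38 with STAR 2.5.4b and took gene counts from featureCounts, filtered out genes of low expression and deposited TMM-scaled log2 RPKM values as edgeR 3.24.3 gives them, one column a library. The deposited file also holds the authors' own comparisons (fold changes, mean expression and p-values), which were not used. The authors also deposited gene lengths.

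The members and gene lists were chosen with earlier results of these data known. The deposited log2 RPKM values were fitted with limma 3.58.1 (R 4.3.3), with all 16 libraries of the 3 groups in 1 fit, a variance trend and no covariate. Tests were two-sided, and p-values were adjusted by Benjamini-Hochberg over 17951 genes. The study's own count test was not run, since the deposited values are log2 RPKM. The test was also run on simulated reads. These had the same spread for every gene and no sets of libraries or shared mice, unlike the data, so that run does not measure the error of the calls here. Named genes were the called members of largest fold change, up to 8 a comparison, and, where under 5 were called, the 3 highest and 3 lowest. Reads were recovered from the steps of the values, all within 0.01 of a whole read. Reads on listed genes were 15623664 to 22119327 in WT, 17216633 to 25184600 in TG Me-X04- and 22430251 to 27579017 in TG Me-X04+. The prior equals 2 reads at the mean library size. In 8 members at least 1 library had 3 reads or fewer, and in none did every library of a group. Fold changes of such genes depend on the prior.

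TG libraries of the same number came from the same mouse by the labels, and the correlations of their deviations from the group means were 0.292, 0.325, 0.320 and 0.329, beside a mean of 0.272 for different numbers of the same set. A block on the TG mice only was added after the data were seen. Alternatives were other variance models, library weights, scalings, pseudocount, filter, samples, call rule, replicate block, a term for the sets of libraries, voom on the recovered reads, and leaving out each library. Promoters came from RefSeq (GRCm38.p6), and 10 members without a window were not searched. 1 gene of the pathway lists is not reported here.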

Additional observations from a re-analysis of the deposited data

Results flagged for a closer look

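In 6 of 120 combinations of a member and a group (5%), the most extreme library stood far from the others of its group by Dixon's criterion, and chance gives about 1 in 20. Of these, 3 were WT 3, which was low for Ifit3 (-4.19 log2 RPKM, with the others at 0.64 to 1.39), for Irf7 (-2.11, others -0.45 to 0.71) and for Lgals3bp (4.09, others 4.43 to 4.65). TG Me-X04- 2 was low for Isg20 (-1.02, others 0.65 to 1.24) and TG Me-X04- 5 for Rsad2 (-1.76, others 0.04 to 0.67). TG Me-X04+ 2 was high for Ifih1 (3.44, others 2.86 to 2.90). Without WT 3, 3 members were called in TG Me-X04- against WT, 22 in TG Me-X04+ against WT and 2 between the TG sorts.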

How the results depend on the processing

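The count of members called in TG Me-X04+ against WT stayed within 20 to 27 of 40 under the 13 alternatives and 21 to 25 without 1 library. Between the TG sorts, 1 was called without a variance trend, with library weights and after quantile normalization, 3 with log2(RPKM + 1) and with voom on the recovered reads, 7 with a term for the sets (11.9% of all genes), 1 higher and 1 lower with libraries scaled by non-mitochondrial reads, and 1 to 2 without 1 library. In TG Me-X04- against WT, 18 were called with library weights (0.975% of all genes), 11 with the term for the sets (0.563%), 3 with log2(RPKM + 1), 3 with only the 2 groups fitted, 3 with voom, 2 with the replicate block and 2 to 5 without 1 library. The cause was not tested.

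With the replicate block on the TG mice only, an alternative chosen after seeing the data, 1 member was called between the TG sorts, Lgals3bp, where 4.72% of all genes were called. The replicate block over all groups also joins different mice across WT and TG by number, and with it 2 were called between the sorts, Lgals3bp and Ifi207. In the comparisons with WT that block, which left 22 members called in TG Me-X04+ against WT, is given for completeness. There the block lost Oas3, Sp100, Slfn5 and Lgals3bp and gained Ifitm3 in TG Me-X04- against WT. Same-numbered libraries correlated at 0.163 and 0.117 on average, below other pairs of the same set.

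Signs turned for members with small differences. Between the TG sorts these were, with library weights, Isg20 (-0.18), Parp14 (-0.19) and Cxcl10 (0.070), after quantile normalization, Trim30a (-0.26) and Parp14 (-0.17), with the block on the TG mice Parp14 (-0.00055), and with libraries scaled by non-mitochondrial reads Isg20 (-0.15), Irf7 (-0.082), Irf9 (-0.012), Oas2 (-0.19), Ddx60 (-0.15), Trim30a (-0.29), Rtp4 (-0.039), Xaf1 (-0.12), Parp9 (-0.038), Parp14 (-0.37) and Herc6 (-0.060). In TG Me-X04+ against WT they were Trim30a (-0.0040 after quantile normalization and -0.011 with the mitochondrial scaling), Parp14 (-0.095) and Slfn2 (-0.046) with that scaling, and Ifi35 (0.089) and Herc6 (-0.13) with the block. In TG Me-X04- against WT they were Ifi35 (-0.00074) with weights, Herc6 with median centring (-0.0014) and the block (-0.23), and Ddx58 (-0.0085) with the block.

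Without 1 library, signs turned between the TG sorts for Cxcl10 (-0.88 to 0.52), Herc6 (-0.025 to 0.58), Ifi35 (-0.48 to 0.20), Isg20 (-0.28 to 0.69), Oas2 (-0.047 to 0.53), Oasl1 (-0.35 to 1.06), Parp14 (-0.094 to 0.12) and Slfn2 (-1.30 to 0.31). In TG Me-X04+ against WT they turned for Herc6 (-0.013 to 0.59), Ifi35 (-0.45 to 0.23), Isg20 (-0.18 to 0.78) and Slfn2 (-0.33 to 1.29), and in TG Me-X04- against WT for Ddx58 (-0.034 to 0.10), Herc6 (-0.16 to 0.23), Ifi35 (-0.20 to 0.24), Isg20 (-0.17 to 0.47) and Parp9 (-0.063 to 0.12).

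A filter on a mean log2 RPKM of at least 0 left 34 members, so 6 had no value there. The 5 and 4 TG libraries limit what could be called, age goes with genotype against WT, and members with few reads in WT have uncertain fold changes.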
